A study of Mus musculus with 6 samples.

Results

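The genes of tumour necrosis factor (TNF), its receptors and their adaptors were examined in macrophages sorted from Day 3 skin wounds of young and aged mice. The 10 genes were chosen by their symbols: the ligand Tnf, the enzyme Adam17, the receptors Tnfrsf1a and Tnfrsf1b, the adaptors and signalling proteins Traf1, Traf2, Tradd, Fadd and Ripk1, and the TNF-induced gene Tnfaip2. All 10 were among the 15168 genes of the count matrix, and all 10 were among the 11878 genes with enough counts to be tested. The rule itself used no measured value, but the list was drawn up with earlier results of these data known. The samples were 3 from young (12 weeks) and 3 from aged (24 months) female C57BL6/J wild-type mice, named here by age and by the set letter A, B or C. Each mouse had received a pair of full-thickness wounds of 10 mm on the back. Live CD45+ CD11b+ F4/80+ CD64+ cells were sorted from the wounds into lysis buffer, without an antibody that would have removed Ly6G+ neutrophils. The labels do not say how many animals contributed to a sample or at which of both housing sites each was kept, so p-values measure the spread between these samples.

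TNF is made by macrophages as a membrane-bound protein that the protease ADAM17 cuts to release the soluble cytokine. TNFR1 (Tnfrsf1a) is present on most cells and carries a death domain. Through this domain it recruits TRADD, RIPK1 and TRAF2 into a first complex that activates NF-kB and MAP kinases. A second complex, which holds FADD and caspase-8, can kill the cell. TNFR2 (Tnfrsf1b) is found mainly on immune and endothelial cells, has no death domain, binds TRAF2 directly and responds best to membrane-bound TNF. In wounds, TNF is an early inflammatory cytokine.

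Total counts ran from 15270103 to 17927483 per sample, and 1 count corresponded to 0.0553 to 0.0701 CPM (counts relative to library size, scaled by the trimmed mean of M-values). All 8 macrophage markers were above 3 counts in every sample, and their summed level was 27966 to 43048 CPM in young and 20174 to 25536 CPM in aged samples. Lyz2 made up most of this sum, at 24157 to 38843 CPM in young and 16240 to 21389 CPM in aged samples (edgeR adjusted p = 0.0753). The other 7 markers summed to 3809 to 4205 CPM in young and 3820 to 4147 CPM in aged samples, which overlapped. Within this sum, Itgam rose from a mean of 376 CPM in young to 750 CPM in aged samples (edgeR adjusted p = 0.00735). Adgre1 fell from a mean of 329 CPM in young to 204 CPM in aged samples (edgeR adjusted p = 0.0292). The groups did not overlap for either gene, and the remaining markers of this sum did not pass. The 12 neutrophil markers in the matrix, of 14 listed, summed to 579, 1026 and 887 CPM in young A, B and C and to 1425, 790 and 1431 CPM in aged A, B and C. Aged B stood apart by keratinocyte transcripts, with a summed level of 113 CPM for the 6 markers in the matrix, of 8 listed, against 0.587 to 0.727 CPM in young samples, and by fibroblast transcripts, with 119 CPM against 23.3 to 41.0 CPM. The summed level of T and NK cell markers was at most 6.16 CPM and that of B cell markers at most 12.9 CPM in any sample. Endothelial markers summed to 11.8 to 12.6 CPM in young and 25.9 to 31.1 CPM in aged samples, mostly from Pecam1, while Cdh5 did not exceed 0.704 CPM. Mast cell markers summed to 18.7 to 68.1 CPM in young and 0.741 to 53.7 CPM in aged samples. In these bulk samples, fewer cells of a type and less RNA per cell cannot be told apart.

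Tnf, Tnfrsf1b, Traf1 and Tnfaip2 were higher in aged samples, each by more than 2-fold, and the other 6 genes did not pass the test. Of all genes tested, 9.73% were higher and 7.97% lower in aged samples at an adjusted p under 0.05, and 4.59% and 4.20% were so by more than 2-fold. No member was lower in the edgeR test, with 1 (Fadd) at an unadjusted p under 0.05, 0 in DESeq2 and 1 (Fadd) in limma-voom. In 8 of the 10 genes every aged sample lay above every young one, which was so for 19.2% of all genes, and in Fadd every aged sample lay below, as for 19.0% of all genes. Tnfrsf1a was the gene whose groups overlapped. Without aged B, which stood apart by skin cell transcripts, 4 genes were again higher, 4 by more than 2-fold, and without young C 2 were (Tnfrsf1b and Traf1). Without aged A, 4 were higher but Tnfrsf1b alone by more than 2-fold, and 1 (Fadd) was lower. The median log2 fold change of the 10 genes was 0.47, against -0.02 over all genes tested.

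**Figure D1:**
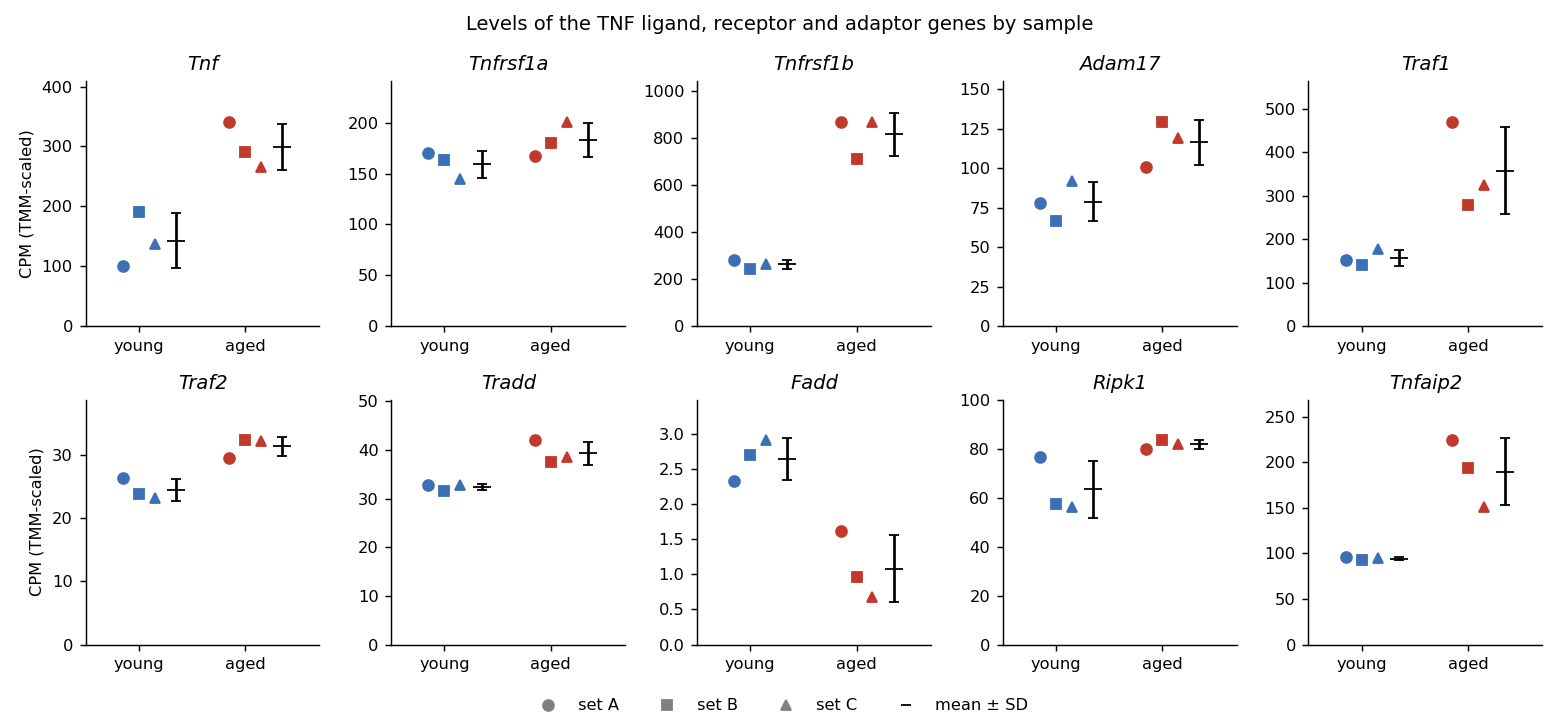
Level of each of the 10 genes in every sample, in CPM on a separate axis per gene, with points for samples and bars for the group mean and SD (n = 3). The aged points lie above the young ones for 8 genes, overlap for Tnfrsf1a and lie below for Fadd.

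To show where transcription starts in the ligand gene and in the receptor and adaptor genes that rose, the 120 bases before the transcription start are given for the ligand, TNFR2 and TRAF1 (RefSeq, GRCm38.p6, minus strand in all 3, 5′ to 3′ in the direction of the gene). Capitals mark the TATA box letters TATAAA.
Tnf, chr17:35202008-35202127: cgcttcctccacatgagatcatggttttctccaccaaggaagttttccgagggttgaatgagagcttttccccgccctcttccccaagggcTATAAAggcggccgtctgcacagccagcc
Tnfrsf1b, chr4:145246871-145246990: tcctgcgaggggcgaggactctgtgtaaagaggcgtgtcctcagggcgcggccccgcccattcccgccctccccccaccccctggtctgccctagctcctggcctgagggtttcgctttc
Traf1, chr2:34961773-34961892: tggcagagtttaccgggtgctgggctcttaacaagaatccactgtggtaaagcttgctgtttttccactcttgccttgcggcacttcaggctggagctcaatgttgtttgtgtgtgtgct
Promoter windows of 300 bases (250 before and 50 after the start) were found for 9 of the 10 genes, all but Tradd. They were searched on both strands for TATAAA and for the NF-kB consensus, the site of the transcription factor that TNF receptors activate, and no matches of the motifs overlapped. TATAAA was present in Tnf alone, at position -29 from the start, and in 13.6% of all 32851 promoter windows. The NF-kB consensus was present in Tnfaip2 alone, on the opposite strand at position -24 (the gene strand reads GGAGGGCCCC there), and in 8.46% of all windows. A match is a description of the letters, and a window without one says nothing about binding elsewhere.

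Tnf (chromosome 17, 35199381 to 35202008 in mm10, minus strand) was measured at 99.6, 191 and 138 CPM in young A, B and C and at 341, 291 and 265 CPM in aged A, B and C. The lowest aged sample was above the highest young one, and the young samples spread the more widely on the log scale. The mean rose from 143 ± 46.0 to 299 ± 38.5 CPM (SD, n = 3), or by 1.07 ± 0.23 on the log2 scale (SE; edgeR quasi-likelihood test, adjusted p = 0.0167), or 2.09-fold with a 95% interval of 1.46 to 3.00. Without young C the log2 difference was no longer called (adjusted p = 0.0872 in edgeR). Neutrophil markers summed to 1425 and 1431 CPM in aged A and C, above all young samples. Their part in the results for Tnf, Tnfrsf1b, Traf1, Tnfaip2 and the other members was not tested. In aged B the sum, 790 CPM, lay within the young range, and 3 of the 12 markers (Retnlg, Lcn2 and Cd177) exceeded every young sample. In aged A 11 markers did so, Ltf and Elane among them at no more than 20 and 6 counts in any sample, and in aged C 9, with Elane. Of the 11 neutrophil markers tested, 4 were higher in aged samples (36.4%, against 9.73% of all genes) and 7 did not pass. Ly6g was among the 7, at a log2 fold change of 0.05 (edgeR adjusted p = 0.923).

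Adam17, the TNF-converting enzyme (chromosome 12, 21323509 to 21373633, minus strand), was at 77.8, 66.9 and 91.7 CPM in young and at 101, 129 and 119 CPM in aged samples. The groups did not overlap, but the gap between the highest young and the lowest aged sample was small beside the spread within groups. Its log2 fold change of 0.56 ± 0.18 (SE; 95% interval 0.17 to 0.96) had an edgeR adjusted p of 0.0503, just outside the threshold, and it passed in 4 of the alternatives. Exons of Adam17 share 311 bases with Iah1 on the opposite strand, 4.35% of its exon length, and Iah1 had 618 to 701 counts in young and 301 to 381 in aged samples. Whether the counting used the strand is not given in the sources used here.

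Among 5 further genes listed for the shedding of TNF, 4 were tested and 2 (50%) rose, against 9.73% of all genes. Rhbdf2 encodes iRhom2, which brings ADAM17 to the surface of myeloid cells, and it was at 56.2, 21.8 and 27.8 CPM in young and at a mean of 104 ± 2.77 CPM in aged samples (SD, n = 3). All 3 aged samples were nearly equal and above the young ones, and its log2 fold change was 1.56 ± 0.30 (SE; edgeR adjusted p = 0.0113). Adam10, a related sheddase, had a log2 fold change of 0.90 ± 0.19 (SE; edgeR adjusted p = 0.0156). The lowest value of the list was that of Rhbdf1, which encodes iRhom1, at -1.15 (edgeR adjusted p = 0.101). Of 9 genes of proteins that bind Tnf mRNA, all tested, 4 (44.4%) rose (edgeR adjusted p from 0.0130 to 0.0332) and the median log2 fold change was 0.50. These were Zc3h12a (regnase-1, an RNase that degrades inflammatory mRNAs) at 1.41, the roquin genes Rc3h2 at 1.12 and Rc3h1 at 0.86, and Zfp36l1, a gene of an AU-rich element binding protein, at 0.73. Tia1, a translational silencer, had the lowest value, -0.36 (edgeR adjusted p = 0.255).

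Tnfrsf1b (chromosome 4, 145213463 to 145246871, minus strand) was at 279, 244 and 262 CPM in young and at 867, 709 and 866 CPM in aged samples. Every aged sample was more than 2-fold above every young one. The mean rose from 261 ± 17.7 to 814 ± 90.7 CPM, or by 1.64 ± 0.17 on the log2 scale (SE; edgeR adjusted p = 0.00127), or 3.11-fold with a 95% interval of 2.40 to 4.05. By p-value it ranked 13 among the genes tested, and it kept its call without any 1 of the 6 samples. The part of neutrophil transcripts in this difference was not tested.

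Tnfrsf1a (chromosome 6, 125349362 to 125362485, plus strand) was at 171, 163 and 145 CPM in young and at 168, 180 and 201 CPM in aged samples. The groups overlapped, since aged A lay below young A. The log2 fold change was 0.20 ± 0.16 (SE; 95% interval -0.15 to 0.55, edgeR adjusted p = 0.404), so that a small rise could not be told from no difference. The log2 ratio of Tnfrsf1b to Tnfrsf1a counts within a sample, which needs no library scaling, was 0.71, 0.58 and 0.85 in young and 2.37, 1.98 and 2.11 in aged samples. Counts of Tnfrsf1b were thus 1.49 to 1.81 times those of Tnfrsf1a in young and 3.93 to 5.18 times in aged samples, uncorrected for length. The mean log2 ratios differed by 1.44, or 2.71-fold (exact permutation test, two-sided, with p = 0.1, below which 3 against 3 samples cannot go).

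**Figure D2:**
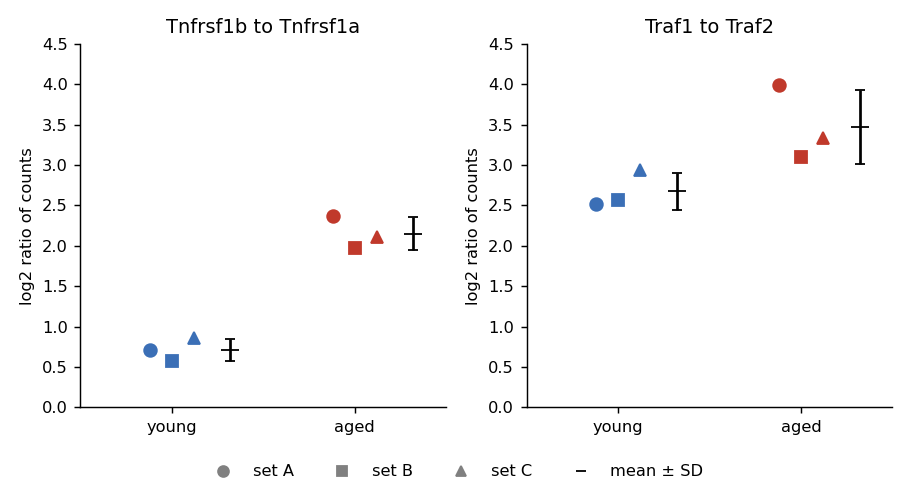
Log2 ratio of counts of Tnfrsf1b to Tnfrsf1a and of Traf1 to Traf2 in each of the 6 samples, with bars for the mean and SD of each age (n = 3). The aged ratios lie above the young ones in both panels, by 1.44 and by 0.80 in the mean.

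Of 25 other receptors of the TNF superfamily, 15 were tested and 5 rose (edgeR adjusted p from 0.00127 to 0.0413), or 33.3% against 9.73% of all genes. Tnfrsf26 was at 5.97, 5.05 and 5.35 CPM in young and at 37.1, 25.2 and 27.4 CPM in aged samples, and its log2 fold change was 2.45 ± 0.22 (SE; edgeR adjusted p = 0.00127). All aged samples were well above the young ones. Tnfrsf23, a decoy receptor for TRAIL, had a log2 fold change of 1.78, Tnfrsf9, which encodes the costimulatory receptor 4-1BB, one of 1.30, and the death receptor gene Fas one of 1.04. Tnfrsf8, which encodes CD30, had a log2 fold change of 2.49 from 3 to 6 counts in young and 18 to 28 counts in aged samples. Tnfrsf14, the lowest of the list, was at -0.77 (edgeR adjusted p = 0.502). Of 16 other ligands of the superfamily, 8 were tested, Tnfsf14 (LIGHT) rose by 0.86 on the log2 scale and Tnfsf12 (TWEAK) fell by 0.73. Each was 12.5% of the ligands tested, against 9.73% of all genes higher and 7.97% lower. The highest and lowest log2 fold changes of the ligands were those of Tnfsf4, 0.87, and Tnfsf18, -1.31, which did not pass (edgeR adjusted p = 0.361 and 0.325).

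Traf1 (chromosome 2, 34941750 to 34961773, minus strand), an NF-kB-inducible adaptor that binds TRAF2 and the cIAP proteins, was at 151, 141 and 178 CPM in young and at 469, 277 and 324 CPM in aged samples. Aged A was the highest by a wide margin, and the lowest aged sample was above the highest young one. The mean rose from 157 ± 18.9 to 357 ± 100.2 CPM, or by 1.19 ± 0.22 on the log2 scale (SE; edgeR adjusted p = 0.00918), or 2.28-fold with a 95% interval of 1.63 to 3.17. Without aged A the log2 fold change was 0.94, and the call held without any 1 sample.

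Traf2, the adaptor that brings cIAP ubiquitin ligases to both receptors (chromosome 2, 25517982 to 25546941, minus strand), was at 26.3, 23.8 and 23.1 CPM in young and at 29.6, 32.3 and 32.2 CPM in aged samples. The groups did not overlap, but the log2 fold change of 0.36 did not pass (standard error 0.16, 95% interval 0.01 to 0.71, edgeR adjusted p = 0.134). The log2 ratio of Traf1 to Traf2 was 2.52, 2.57 and 2.94 in young and 3.99, 3.10 and 3.33 in aged samples. Counts of Traf1 were 5.73 to 7.68 times those of Traf2 in young and 8.58 to 15.9 times in aged samples, and the mean log2 ratios differed by 0.80 (exact permutation test, two-sided, with p = 0.1, again the lowest this design allows).

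Tradd and Ripk1, which join TNFR1 through death domains, had values above the young range in every aged sample and did not pass. Tradd (chromosome 8, 105258286 to 105264610, minus strand) was at 32.8, 31.6 and 32.8 CPM in young and at 42.0, 37.4 and 38.5 CPM in aged samples, a log2 fold change of 0.28 (95% interval -0.06 to 0.61, edgeR adjusted p = 0.217). Ripk1 (chromosome 13, 34002363 to 34037148, plus strand) was at 76.7, 57.3 and 56.3 CPM in young and at 80.0, 83.4 and 82.0 CPM in aged samples, a log2 fold change of 0.37 (95% interval -0.01 to 0.74, edgeR adjusted p = 0.152). Young A lay close to the aged samples for Ripk1. Exons of Ripk1 share 241 bases, 2.89% of their length, with Serpinb6a on the opposite strand. Serpinb6a had 1000, 1479 and 1057 counts in young A, B and C and 489, 1091 and 645 in aged A, B and C. They also share 511 bases with Gm17084, a processed pseudogene on the same strand that is not in the matrix.

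A list of 20 further enzymes, adaptors and kinases, of the first receptor complex or related to its proteins, was tested in full. Of these, 2 rose, a share of 10% that is close to the 9.73% of all genes. Traf6, an adaptor shared with Toll-like receptors, had a log2 fold change of 0.86 and Birc3, which encodes cIAP2, one of 0.61 (edgeR adjusted p = 0.0149 and 0.0337). In 12 of the 20 the aged samples all lay above the young ones, against 19.2% of all genes, and the median was 0.41. The extremes were low in counts and did not pass: Traf4 at 1.07 (edgeR adjusted p = 0.276) and Tab1 at -0.92 (edgeR adjusted p = 0.196).

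Fadd, the adaptor that recruits caspase-8 (chromosome 7, 144577318 to 144582464, minus strand), was the member with the lowest level, from 2.32 to 2.91 CPM in young (42, 46 and 44 counts in A, B and C) and at 1.61, 0.955 and 0.679 CPM (23, 15 and 11 counts) in aged samples. Every aged sample was below every young one. The log2 fold change was -1.29 ± 0.42 (SE; 95% interval -2.22 to -0.36) with an edgeR adjusted p of 0.0569, so the difference did not pass, and it passed without aged A (adjusted p = 0.0429 in edgeR). Of 8 further genes of the death-inducing complex, all tested, 2 rose and 2 fell, 25% each, against 9.73% and 7.97% of all genes. Cflar, which encodes the caspase-8 inhibitor c-FLIP, was at 70.0, 46.5 and 59.6 CPM in young and at 140, 132 and 134 CPM in aged samples, and its log2 fold change was 1.21 ± 0.18 (SE; edgeR adjusted p = 0.00436). Ripk3, the kinase that starts necroptosis, rose by 0.70 on the log2 scale, while Mlkl, the pore-forming protein of necroptosis, fell by 0.90. Zbp1, a nucleic acid sensor that engages RIPK3, was at 65.5, 97.0 and 96.3 CPM in young and at 29.1, 23.2 and 50.6 CPM in aged samples, and its log2 fold change was -1.33 ± 0.28 (SE; edgeR adjusted p = 0.0151).

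Tnfaip2 (chromosome 12, 111442469 to 111455019, plus strand), a gene induced by TNF whose product promotes the formation of membrane protrusions, was between 92.6 (young B) and 95.7 CPM (young A) in young and at 224, 194 and 152 CPM in aged samples. The young samples were nearly equal, and the aged ones spread widely above them. The mean rose from 94.4 ± 1.60 to 190 ± 36.5 CPM, or by 1.01 ± 0.18 on the log2 scale (SE; edgeR adjusted p = 0.00837), or 2.01-fold with a 95% interval of 1.53 to 2.64. Without young C the adjusted p was 0.0549 in edgeR. Of 7 other genes named as TNF alpha-induced, 6 were tested, and 1 rose and 1 fell, 16.7% each, against 9.73% and 7.97% of all genes. Tnfaip6, which encodes the hyaluronan-binding protein TSG-6, rose by 1.21 on the log2 scale (edgeR adjusted p = 0.00815), and Tnfaip8l2, which encodes TIPE2, a brake on immune cell activation, fell by 0.72 (edgeR adjusted p = 0.0267).

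All 10 genes of inhibitors of receptor signalling were tested, and 3 (30%) rose, against 9.73% of all genes. Tnip1, which encodes the A20-binding protein ABIN-1, was at 24.8, 28.2 and 29.5 CPM in young and at 95.8, 87.6 and 72.4 CPM in aged samples, and its log2 fold change was 1.63 ± 0.17 (SE; edgeR adjusted p = 0.00127). Nfkbia, which encodes the inhibitor that holds NF-kB in the cytoplasm and is itself an NF-kB target, had a log2 fold change of 1.01, and Tnip3 (ABIN-3) one of 0.67. Tnfaip3, which encodes the ubiquitin-editing enzyme A20, was at 0.70 and did not pass (edgeR adjusted p = 0.0807), and Otulin was the lowest at -0.27. Of 11 MAP kinase pathway genes, all tested, 3 (27.3%) rose (edgeR adjusted p from 0.0106 to 0.0261). They were Map2k4 and Map2k3, kinases upstream of JNK and p38, at 1.44 and 1.13, and Mapkapk2, a p38 target that promotes translation of Tnf mRNA, at 0.77. Map2k6 was the lowest of these at -0.61 (edgeR adjusted p = 0.300).

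Over all 110 further genes of the pathway, 99 were in the matrix and 90 were tested, of which 23 were higher and 4 lower in aged samples, 14 and 1 of them by more than 2-fold, and the median log2 fold change was 0.40. Those higher made up 25.6% and those lower 4.44% of the genes tested, against 9.73% and 7.97% of all genes, and over 2-fold the shares of all genes were 4.59% and 4.20%. Of these 27 calls, 6 passed in every alternative. In 6 of the 9 lists no gene was lower in edgeR. Over these 6 lists, 4 genes were lower at an unadjusted p under 0.05 (Cd40, Relt, Rhbdf1 and Traf5), 0 in DESeq2 and 2 in limma-voom (Cd40 and Relt). The counts depended on single samples: without young C, 6 were higher and 0 lower, without young B 15 and 0, and without aged C 10 and 1, while 2 were lower without aged A or aged B. Calls over all genes were 151 higher and 67 lower without young C, 435 and 330 without young B, and 351 and 194 without aged C. With all 6 samples they were 1156 and 947.

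**Figure D3:**
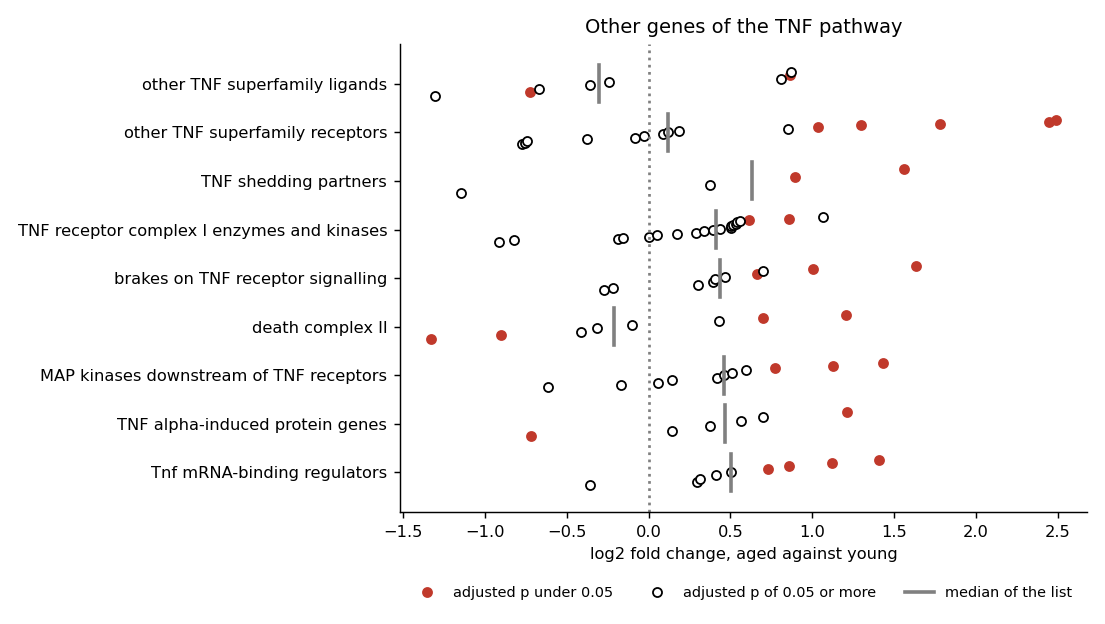
Log2 fold change (aged against young) of each tested gene of the 9 pathway lists, 1 row of points per list, with filled points for genes at an adjusted p under 0.05 and a bar for the median of the list. Of the 90 genes, 23 filled points lie above 0 and 4 below, and Tnfaip3 is drawn in both lists that hold it.

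**Figure D4:**
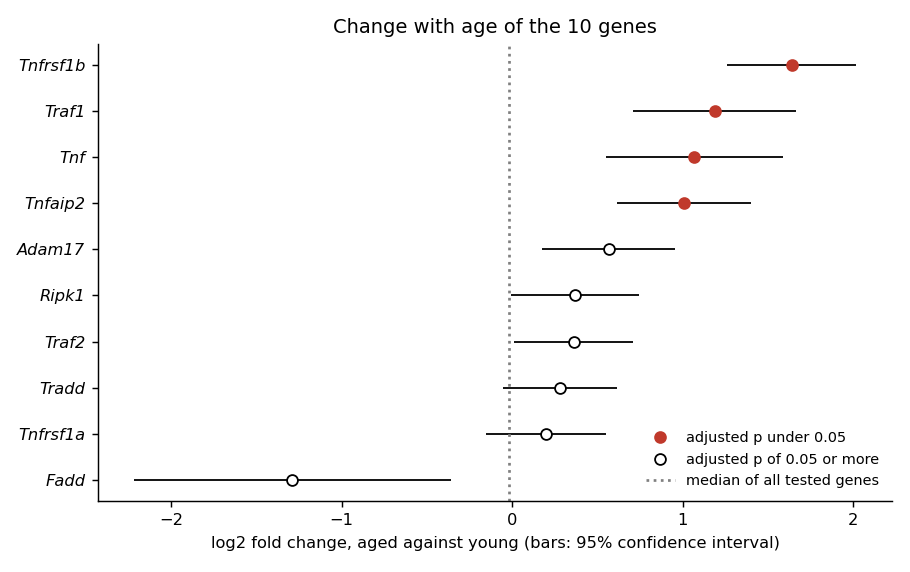
Log2 fold change of the 10 genes, aged against young, with bars for the 95% interval filled points for an adjusted p under 0.05 and a dotted line at the median of all tested genes. Tnfrsf1b is highest at 1.64, the 4 filled points lie above 1, and Fadd is the one gene below 0.

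To compare levels between genes, CPM were divided by exon length in kilobases, taken as all annotated exons of a gene merged over its transcripts. The transcripts present may be shorter, so the order between genes depends on this choice of length, and other lengths were not tried. In young samples the order was Tnf at 87.1 ± 28.1, Tnfrsf1b at 68.4 ± 4.62 and Tnfrsf1a at 61.6 ± 5.13 CPM per kilobase, and neighbours in this order overlapped. Tnfaip2, Traf1 and Tradd followed at 18.9, 17.8 and 17.4 and overlapped likewise, and Adam17 (11.0), Ripk1 (7.60), Traf2 (4.78) and Fadd (0.677) each lay apart. In aged samples Tnfrsf1b was at 213 ± 23.8 and Tnf at 182 ± 23.5 CPM per kilobase, overlapping each other, while Tnfrsf1a at 70.6 ± 6.53 lay below both. Traf1 and Tnfaip2 were next at 40.5 ± 11.4 and 38.1 ± 7.33 and overlapped, and Tradd (21.1), Adam17 (16.3), Ripk1 (9.81), Traf2 (6.14) and Fadd (0.277) followed, each apart from the next. By this merged length, Tnfrsf1b was above Tnfrsf1a within each of the 6 samples. In young samples the gap ran from 63.8 against 63.0 CPM per kilobase in B to 68.5 against 55.9 in C.

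**Figure D5:**
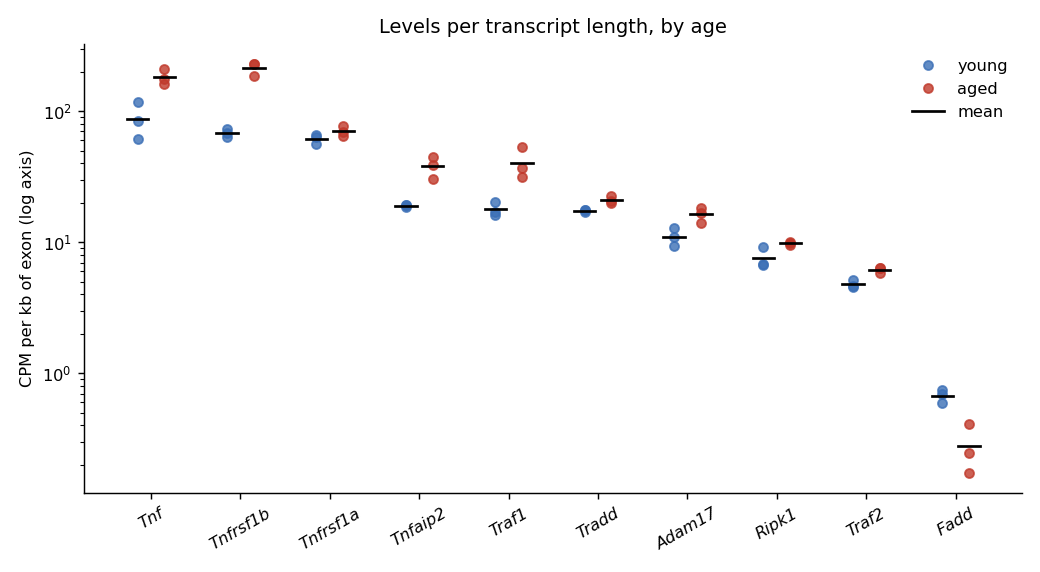
Level of the 10 genes per kilobase of exon, in CPM per kilobase on a log axis, with points for samples of both ages and bars for group means (n = 3). Tnf and the 2 receptors are the highest genes in young samples, and in aged samples Tnfrsf1b (213) and Tnf (182) lie above Tnfrsf1a (70.6).

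The profile of Tnf over the 6 samples, centred log2 CPM, was compared with those of 6587 genes with a mean of at least 10 CPM by the root-mean-square distance, whose median was 0.656. Closest were Pla2g4a at 0.0994, the phospholipase that releases arachidonic acid, Nfkbia at 0.164, Fbxl5 at 0.169, Cd24a at 0.176 and Tnfrsf9 at 0.181. Pla2g4a was from 26.1 (young A) to 43.5 CPM (young B) in young and at 87.3, 70.8 and 73.9 CPM in aged samples, highest in aged A and lowest in young A, as Tnf was. Among the members Tnfaip2 ranked 52 and Traf1 ranked 115 by this distance, while Tnfrsf1b ranked 492. These distances describe 6 samples that share libraries and ages.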

How the data were processed

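RNA of CD45+ CD11b+ F4/80+ CD64+ wound cells, 3 samples per age, was sequenced in bulk. The libraries were of the SMART-Seq v4 type, and according to the paper a service provider constructed them. The authors aligned reads with STAR 2.7.3a to mm10 and quantified them on Ensembl transcripts (release 102) in Partek Flow. They deposited expected counts per gene, not normalised, for genes with a total of at least 10. Of the gene values, 30.7 to 34.0% per sample were not whole. A second table of the authors' DESeq2 comparison, with normalised values, p-values and fold changes, was not used.

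The design named raw counts; the expected counts were rounded and tested in R 4.3.3 with edgeR 4.0.16 (TMM scaling with factors of 0.904 to 1.11, filterByExpr by age, quasi-likelihood test of aged against young, Benjamini-Hochberg adjustment over 11878 genes, threshold 0.05, and additionally over 2-fold). Log2 CPM used a prior count of 2 and ratios of counts one of 0.5. DESeq2 1.42.0, limma-voom 3.58.1 with sample quality weights, other scalings and filters, unrounded values, a block for the set letter and fits lacking 1 sample each were alternatives. Samples of 1 age differed by more than sampling noise.

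The members and lists were chosen with earlier results of these data known. Named were all 10 members, the extremes of each list, passing genes where a list had 6 or fewer, and the 5 genes nearest to Tnf. Cd40, Relt, Traf5, Tnfaip3, Pecam1, Cdh5, Lyz2, Itgam, Adgre1, Ly6g, Ltf, Elane, Retnlg, Lcn2, Cd177 and genes overlapping a member were named after their values were seen. Exon lengths were those of GENCODE vM21 (GRCm38, the mm10 build), and gene ends in the matrix lie 1 base past those of GENCODE. Promoters were RefSeq, GRCm38.p6. Python 3.11.15, pandas 2.3.3 and matplotlib 3.10.9 were used.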

Additional observations from a re-analysis of the deposited data

How the results depend on the processing

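Directions of all 10 members held in the 13 alternatives, with no reversal. Of 130 values (10 log2 fold changes under 13 alternatives), 119 stayed on the same side of the threshold, 9 passed it newly and 2 lost it. The 2 lost were Tnf and Tnfaip2 without young C (edgeR adjusted p = 0.0872 and 0.0549). Adam17 passed with DESeq2 (adjusted p = 0.0244), limma-voom (0.0309), DESeq2 size factors in edgeR (0.0468) and at least 10 counts in every sample (0.0477), Ripk1 with limma-voom (0.0358) and without young A (0.0388, edgeR), and Fadd with limma-voom (0.0105), at least 10 counts (0.0313, edgeR) and without aged A (0.0429, edgeR). Members higher numbered 4 (2 to 5 when each sample was left out), members lower 0 (0 to 1) and members over 2-fold 4 (1 to 4). Members lower numbered 1 with limma-voom and 1 with at least 10 counts in every sample. Over 2-fold, 1 remained without aged A (Tnfrsf1b) and 2 without young C. Other pathway genes higher numbered 36 with limma-voom, and 6 to 28 (lower 0 to 6) when each sample was left out. Calls over all genes moved too, from 1156 higher in the main fit to 1933 with limma-voom. They ran from 151 to 1574 higher (lower 67 to 1128) when each sample was left out. The cause was not tested. Ratio differences ran from 1.33 to 1.53 (receptors) and from 0.54 to 0.98 (TRAFs) without 1 sample.

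The main fit did not pair samples by set letter, and whether the letters mark pairs was not settled. Deviations of same-letter samples correlated at 0.18, -0.02 and 0.11, and 3 of 6 samples correlated best with their own letter. With the replicate block, members higher numbered 4, lower 0 and over 2-fold 3, and other pathway genes 22 and 4. Tnf was then at 1.11 (edgeR adjusted p = 0.0203), Tnfrsf1b at 1.64, Traf1 at 1.16 and Tnfaip2 at 0.99, and the ratio differences were 1.44 and 0.80 with standard errors of 0.12 and 0.34. Fadd, at 11 to 46 counts, is the member whose depth limits precision most.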
